A study of Mus musculus with 8 samples.

Results

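The matricellular genes described here encode secreted proteins of the extracellular matrix that mostly act on cells and growth factors rather than as structural fibres. The 10 genes Postn, Sparc, Thbs1, Thbs2, Tnc, Spp1, Fn1, Fstl1, Mgp and Tgfbi were taken as a list of known matricellular genes and matched by symbol, and all 10 were among the 14162 genes of the deposited table. They were measured by RNA sequencing in 8 libraries of mouse hepatic stellate cells, the perisinusoidal liver cells that store vitamin A and turn into contractile, matrix-secreting myofibroblasts after injury. Each of 4 groups has 2 libraries, marked a and b in the labels: quiescent, activated, activated and given miR-15a, and activated and given a control microRNA. The stated purpose of the series was to predict which genes miR-15a targets.

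As background, matricellular proteins are low in most resting adult tissue and are deposited during wound repair. Fibronectin (Fn1) is the provisional matrix on which collagen is assembled and is bound by integrins. Thrombospondins (Thbs1, Thbs2) are large multimeric proteins that bind CD36 and CD47, and thrombospondin 1 can release TGF-beta from its latent complex. Periostin (Postn) and TGFBI are fasciclin-domain proteins and integrin ligands, tenascin C (Tnc) modulates adhesion, and osteopontin (Spp1) binds integrins and CD44. SPARC binds collagen, FSTL1 is a secreted glycoprotein related to SPARC and follistatin that modulates BMP signalling, and matrix Gla protein (Mgp) inhibits calcification and binds BMPs.

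C57BL/6J and SCID mice are both given for the series, without assigning a strain, sex or age to any library. The labels do not say how the cells were isolated or activated, how the microRNAs were introduced, or whether libraries a and b came from separate animals or cultures. The p-values therefore set a difference between groups only against the spread of libraries within groups, pooled over the 4 groups and moderated by a variance prior. That spread may be technical. Sex-linked genes, looked at after their values were known, differed between groups: Xist stood at 8724 in both quiescent libraries against 169 and 21 after activation, and the Y-linked Ddx3y at 44 and 40 against 2606 and 2570. The control microRNA libraries had Xist values of 3373 and 5027, with Ddx3y values of 1282 and 1268. With miR-15a Xist was at 3373 in both libraries and Ddx3y at 1046 and 1006. Both microRNA groups thus differed from activated cells in these genes too. Differences between groups and differences between the animals behind them cannot be told apart.

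The deposited values are normalized scores and not read counts. Every library holds the same 910 distinct values and the same maximum of 125636, at which 10 genes stand in each library. High values lie on shared steps of about 10 genes, and the normalization that gave these steps is not given in the sources used here. This bears on the genes below, since a gene at 125636 cannot be seen to rise further, and libraries of a group can be tied with an SD of 0. Levels are not compared between genes, since no scaling to transcript length is stated. The depth of each library is unknown.

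Marker genes were checked against the labels. Of 8 markers of activated stellate cells or myofibroblasts, all 8 were higher in activated than in quiescent libraries, and their summed value was 482795 to 484747 against 2612 to 2959. The list for quiescent stellate cells had 11 measured genes, of which 8 were lower and 3 higher after activation, and the summed value went from 23035 to 23978 down to 8696 to 9067. Lrat, the retinol-esterifying enzyme that defines vitamin A storage, had no measured value, and desmin (Des) was at 131 and 120 in quiescent and 56 and 48 in activated libraries. The quiescent libraries also held transcripts of other liver cells. All 10 endothelial markers were present, with a summed value of 124110 to 194234 against 699 to 782 in activated, 734 to 1057 in control microRNA and 7197 to 7430 in miR-15a libraries. The 8 measured macrophage markers summed to 114999 to 136200 in quiescent libraries, 1406 to 1510 in activated, 1798 to 2045 in control microRNA and 10072 to 11442 in miR-15a libraries. For 7 hepatocyte markers the sums were 12972 to 15029, 254 to 317, 164 to 1111 and 1272 to 1804 in the same order. No marker of these lists was at 0 in both libraries of a group. In such bulk libraries fewer cells of a type and less RNA per cell cannot be told apart, and the part of this cell mixture in the differences below was not tested.

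**Figure D1:**
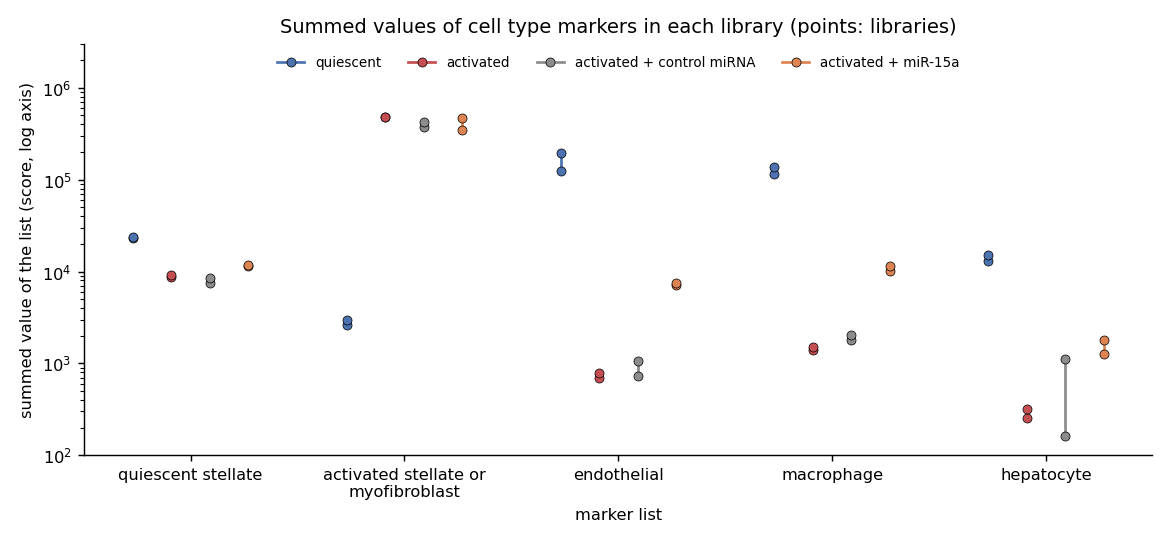
Summed deposited values (log axis) of 5 marker lists in each library, with points for the 2 libraries of a group joined by a line. Endothelial and macrophage sums are highest in quiescent libraries and are higher with miR-15a (7197 to 7430 and 10072 to 11442) than in the other activated groups.

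A microRNA pairs with its targets mainly through its seed, bases 2 to 8 from its 5′ end. The mature miR-15a sequence is shown because it defines the sites sought below. It is RefSeq's mmu-miR-15a-5p (GRCm38.p6, chr14:61632075-61632096, minus strand), 22 bases long, with the seed in capitals.
miR-15a: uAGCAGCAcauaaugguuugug

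The DNA match to the whole seed is TGCTGCT. The search covered 1 annotated 3′ UTR per gene, the longest in GENCODE M21 (GRCm38), on the transcript strand. A match was found in 3 of the 10 genes, Thbs1, Thbs2 and Fstl1, against 26.4% of the 12540 genes of the table with an annotated 3′ UTR. The 3 genes also have the longest 3′ UTRs of the 10, at 2104, 2013 and 2588 bases. The median length was 830.5 bases over the 10 genes and 1342 over all genes. The 5 sites follow, each as 30 bases of the transcript strand from 5′ to 3′ with the seed match in capitals, because they are the places at which miR-15a could pair with these messages.
Thbs1 (chr2:118125582-118125611, plus strand, exon 22 of 22): tgctgcatttctgcaTGCTGCTggtgagag
Thbs2, first site (chr17:14667296-14667325, minus strand, exon 22 of 22): caagagcttccagccTGCTGCTggaaaaca
Thbs2, second site (chr17:14666613-14666642, minus strand, exon 22 of 22): atcctttcctgtcccTGCTGCTaggaaaca
Fstl1, first site (chr16:37834310-37834339, plus strand, exon 11 of 11): tgtagggaggaacccTGCTGCTttgaccct
Fstl1, second site (chr16:37835719-37835748, plus strand, exon 11 of 11): catcatcaaaagtttTGCTGCTgggaagaa

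The second Thbs2 site is the only one of the 5 followed by A, the base that faces the first base of the microRNA in an 8-base match. Postn, Tnc, Spp1, Fn1, Mgp and Tgfbi had no match to the 7 bases or to the shorter GCTGCT, and Sparc had 1 match to GCTGCT. Such a match is a description of the sequence and was not tested as a binding site.

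**Figure D2:**
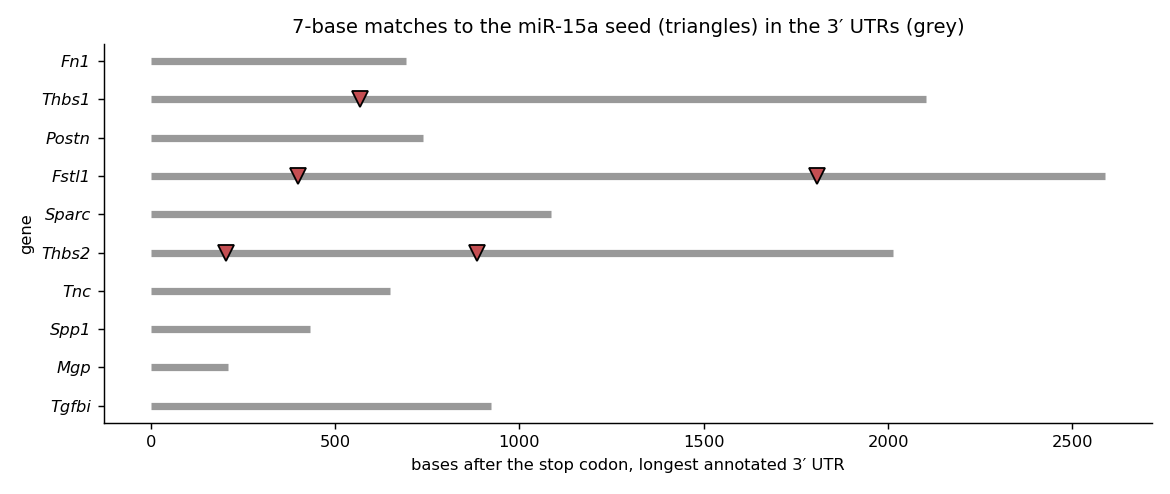
Longest annotated 3′ UTR of each gene (grey, in bases after the stop codon) with the 7-base matches to the miR-15a seed as triangles. Matches lie in Thbs1 (1), Fstl1 (2) and Thbs2 (2), the 3 genes with 3′ UTRs of 2013 bases or more.

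The first comparison describes activation. In activated against quiescent libraries 9 of the 10 matricellular genes rose and 1, Tgfbi, fell (limma on log2(value + 5), Benjamini-Hochberg over 13150 genes, call at an adjusted p under 0.05). Over all genes tested 45.4% were called higher and 34.1% lower in this comparison (38.6% and 39.6% after median-ratio scaling of the libraries), so a call by itself is common. The median log2 difference of the 10 genes was 4.30, against 0.21 over all genes. The range ran from -5.48 for Tgfbi to 9.79 for Mgp. None of the 10 genes had overlapping libraries, but the share of all genes without overlap was not counted.

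Fn1 had values of 792 and 734 in quiescent libraries and of 125636, the shared maximum, in both activated libraries. Its log2 difference of 7.36 ± 0.07 (SE, n = 2 per group; adjusted p = 5.2e-10, limma) is bounded by that ceiling. Thbs1 was at 8202 in both quiescent libraries and likewise at 125636 in both activated ones, a log2 difference of 3.94 ± 0.07 (adjusted p = 5.0e-09, limma) that is bounded in the same way. Both genes were at this maximum in all 6 libraries of the 3 activated groups. Thbs1 was tied within every group, so its SE rests on the variance prior and not on a spread between its own libraries.

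Postn was at 448 and 512 in quiescent and at 42350 and 31224 in activated libraries, a mean 76.6 times higher (log2 difference 6.23 ± 0.15, adjusted p = 2.1e-08, limma). Fstl1 was at 438 and 447 in quiescent libraries and at 42360 in both activated ones, a log2 difference of 6.56 ± 0.05. Thbs2, the second thrombospondin, was at 240 and 219 against 5561 and 6288, a mean 25.8 times higher with a log2 difference of 4.66 ± 0.11. In all 3 genes both activated libraries lay above both quiescent ones, a separation that was not counted over all genes.

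Sparc was at 4169 and 3814 in quiescent libraries and at 24105 in both activated libraries (log2 difference 2.59 ± 0.09). Tnc changed least of the 9 genes that rose, from 1716 and 1634 to 3514 and 3895 (1.14 ± 0.07). Spp1, which cholangiocytes and macrophages also express, was at 74 and 65 in quiescent and at 748 and 782 in activated libraries (3.37 ± 0.10). The macrophage sums given above moved the other way, and the part of these cells was not tested. Of the cholangiocyte markers only 2 were measured, with sums of 3 to 6 in quiescent and 17 to 20 in activated libraries, so this cell type could hardly be checked.

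Mgp and Tgfbi were the extremes. Mgp was at 1 in both quiescent libraries and at 6003 and 4665 in activated ones. Mesothelial cells and portal fibroblasts also express Mgp. Of 4 measured markers of these cells 3 were higher and 1 was lower in activated libraries. Their summed value was 278 to 300 in quiescent and 1451 to 1526 in activated libraries. Thy1, a marker in this list, went from 0 and 1 to 792 and 782. The part of these cells in the result was not tested. The log2 difference of 9.79 for Mgp depends on the pseudocount of 5, being 11.37 with a pseudocount of 1 and 7.98 with 20. Tgfbi, named for its induction by TGF-beta, was at 1515 and 1430 in quiescent libraries and at 28 in both activated ones, so that the activated mean was 1.90% of the quiescent one (log2 difference -5.48 ± 0.13, adjusted p = 1.9e-08, limma). Macrophages also express Tgfbi, and its direction was that of the endothelial and macrophage markers, whose part in this difference was not tested.

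**Figure D3:**
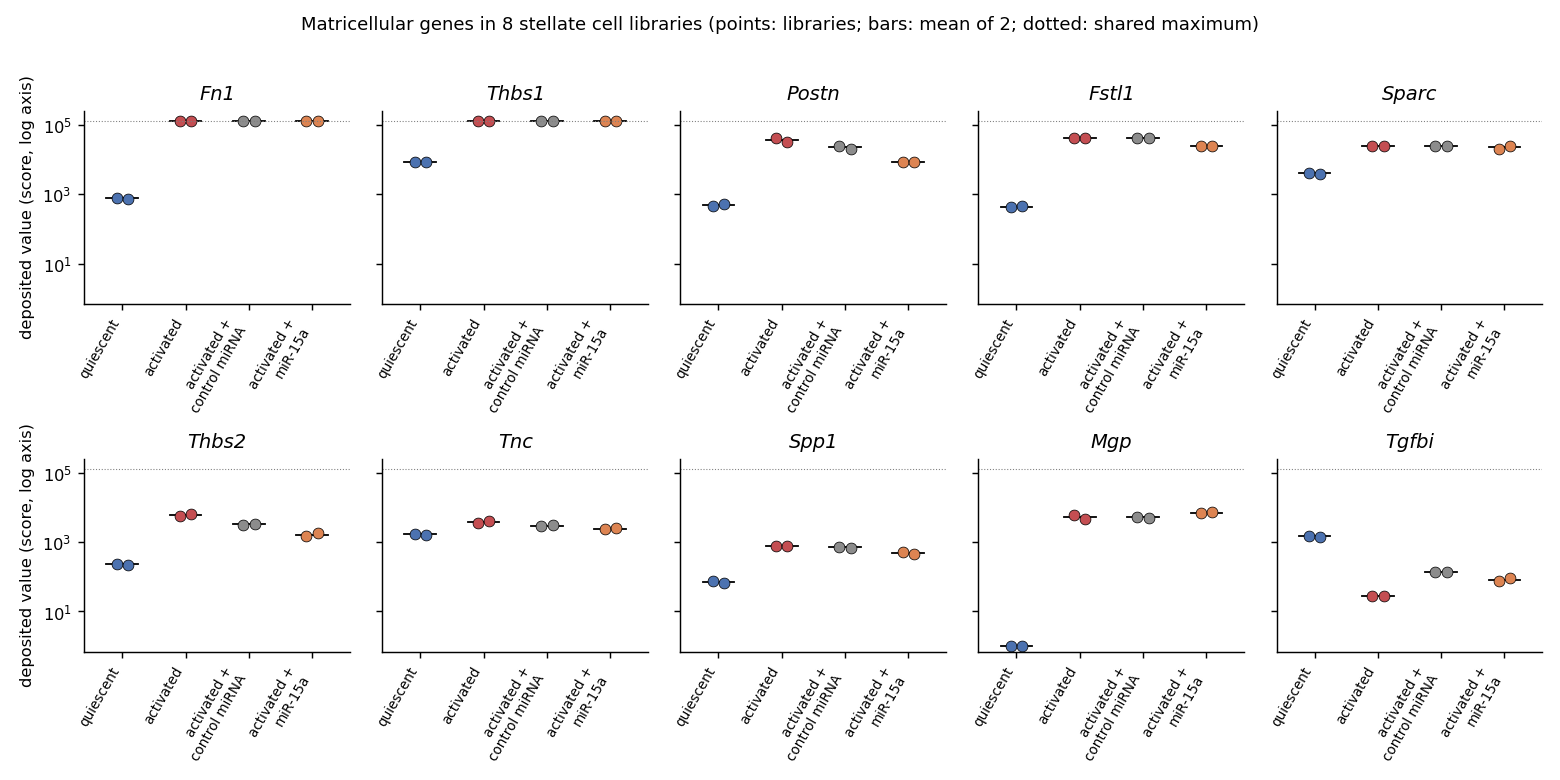
Deposited values (log axis) of the 10 genes by group, with points for the 2 libraries and a bar for their mean; the dotted line is the shared maximum of 125636. Fn1 and Thbs1 lie on that line in all 6 activated libraries, Mgp starts at 1 in quiescent libraries, and Tgfbi alone is highest there.

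Activated cells given a microRNA were also set against quiescent cells. The same 9 genes were called higher and Tgfbi lower in both comparisons, which share the quiescent libraries with the first. Of all genes 40.7% were higher and 33% lower with the control microRNA (35.4% and 37.7% after median-ratio scaling). With miR-15a 37.1% were higher and 34.4% lower (33.7% and 38.0% after scaling). The gene nearest to its quiescent level with miR-15a was Tnc, at a log2 difference of 0.52 ± 0.07 (adjusted p = 2.1e-04, limma), and the next was Sparc at 2.48 ± 0.09. Postn stood 4.17 ± 0.15 and Thbs2 2.78 ± 0.11 above the quiescent level on the log2 scale.

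Libraries with miR-15a were then set against those with the control microRNA, where group and animal differences cannot be told apart either. Of the 10 genes 6 were lower with miR-15a (Postn, Thbs2, Fstl1, Tgfbi, Spp1 and Tnc), 1 was higher (Mgp) and 3 were not called (Sparc, Fn1 and Thbs1). Over all genes 15.4% were called lower and 14.4% higher (12.5% and 17.1% after median-ratio scaling). The median log2 difference was -0.40 for the 10 genes and -0.07 over all genes. Among the cell type markers 9 of 10 endothelial, 8 of 8 macrophage and 0 of 7 hepatocyte genes were called higher with miR-15a, and their part was not tested.

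The largest difference was that of Postn, at 8724 in both miR-15a libraries and at 24099 and 20500 with the control microRNA (log2 difference -1.35 ± 0.15, adjusted p = 6.4e-04, limma). Postn had no seed match. Thbs2, with 2 seed matches, was at 1440 and 1794 against 3168 and 3373, a mean of 49.4% of the control level (-1.02 ± 0.11, adjusted p = 7.1e-04, limma). Fstl1, the other gene with 2 matches, was at 24105 in both miR-15a libraries and 42360 in both control libraries (-0.81 ± 0.05, adjusted p = 4.0e-05, limma). With tied libraries the SE of Fstl1 may be too small. In all 3 genes the libraries of the 2 groups did not overlap, which was not counted over all genes.

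Smaller differences were seen in Spp1 and Tnc, which had no seed match. Spp1 was at 532 and 465 with miR-15a and at 732 and 688 with the control (-0.51 ± 0.10, adjusted p = 0.0085, limma). Of the 2 measured cholangiocyte markers, Sox9 was at 19 and 16 against 54 and 64. The other, Cdh1, was at 3 and 6 against 0 and 4, too low to be tested. The part of this cell type in the result was not tested. Tnc was at 2361 and 2460 against 2924 and 2992 (-0.29 ± 0.07, adjusted p = 0.015, limma). The call of Tnc was lost without miR-15a library a (adjusted p = 0.068), without control library b (0.059) and with a constant variance prior (0.0504), and that of Spp1 without miR-15a library b (0.052).

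Tgfbi was at 73 and 92 with miR-15a and at 138 in both control libraries (-0.72 ± 0.13, adjusted p = 0.0055, limma). The endothelial and macrophage sums moved the other way in this comparison, and the part of these cells was not tested. Of the 4 mesothelial or portal fibroblast markers set beside Mgp above, 2 were lower, 1 was higher and 1 was not called. Their sums were 1000 to 1004 with miR-15a against 1207 to 1262, and their part was not tested. Mgp, at 6825 and 7290 against 5345 and 4900, was higher by 0.46 ± 0.12 (adjusted p = 0.022, limma). That call was lost without miR-15a library a (0.064), miR-15a library b (0.11) or control library b (0.11).

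Sparc was at 20504 and 24105 with miR-15a and at 24105 in both control libraries, with a difference of -0.12 and a 95% interval of -0.32 to 0.09. Fn1 and Thbs1 were at 125636 in every activated library, so a difference at or above the ceiling could not be seen. For Thbs1, which has a seed match, these values therefore give no measure of a response to miR-15a.

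**Figure D4:**
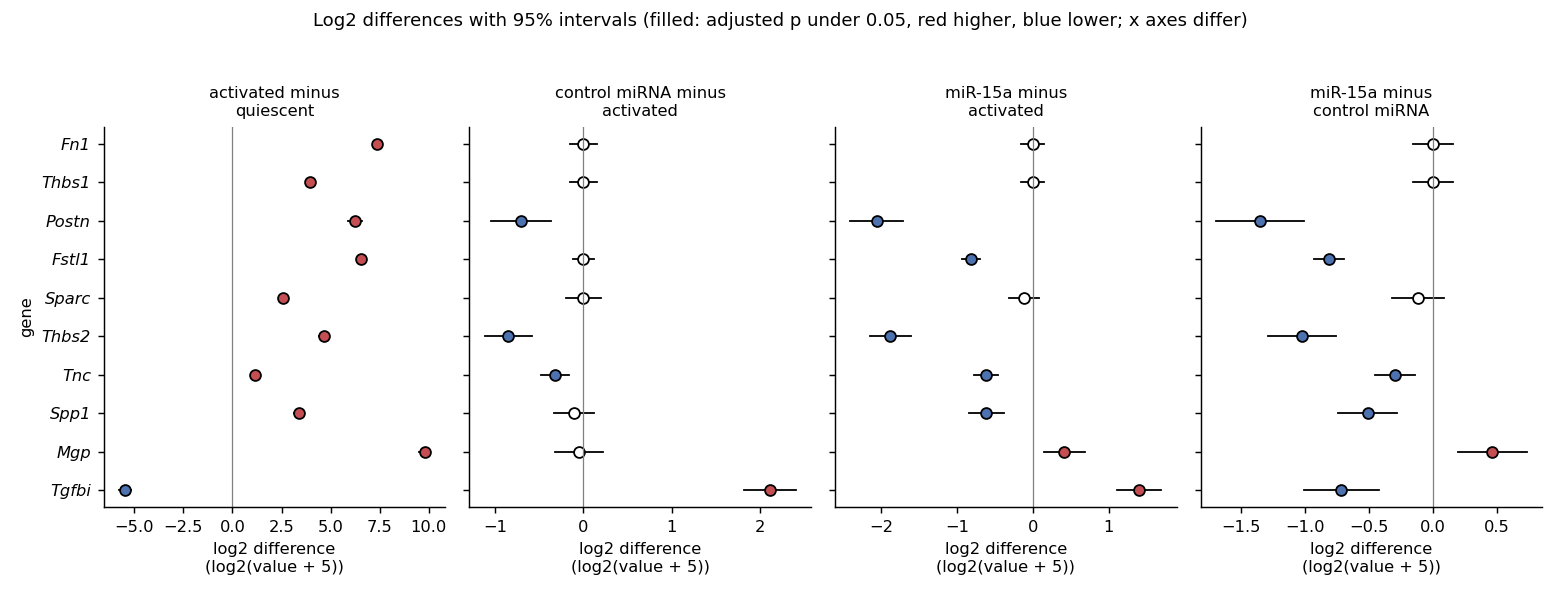
Log2 differences of the 10 genes on the log2(value + 5) scale with 95% intervals in 4 comparisons (x axes differ); filled points have an adjusted p under 0.05, red for higher and blue for lower. With miR-15a, Postn, Thbs2, Fstl1, Tnc and Spp1 lie below 0 against both other activated groups, Mgp lies above 0, and Tgfbi lies on opposite sides.

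Against activated cells with no microRNA named, 5 of the 10 genes were lower with miR-15a (Postn, Thbs2, Fstl1, Tnc and Spp1), 2 were higher (Mgp and Tgfbi) and 3 were not called. Of all genes 21.6% were lower and 16.8% higher, or 14.7% and 21.3% after median-ratio scaling, which changed none of the 10 calls. This comparison shares the miR-15a libraries with the one above. The median log2 difference was -0.37 for the 10 genes and -0.10 over all genes.

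Postn with miR-15a was at 23.7% of its activated mean (-2.06 ± 0.15, adjusted p = 5.3e-05, limma) and Thbs2 at 27.3% (-1.88 ± 0.11, adjusted p = 2.4e-05, limma). Fstl1 was at 56.9% (-0.81 ± 0.05), Tnc at 65.1% (-0.62 ± 0.07) and Spp1 at 65.2% (-0.62 ± 0.10), all with adjusted p-values of 0.0030 or less. Mgp was at 132% (0.41 ± 0.12, adjusted p = 0.027, limma), a call lost without activated library b (0.12) or either miR-15a library (0.069 and 0.13). It was also lost with a constant variance prior (0.054) and with only the 2 groups in the fit (0.073). Tgfbi was 1.40 ± 0.13 higher with miR-15a on the log2 scale, from 28 in both activated libraries to 73 and 92. In this comparison 9 of 10 endothelial and 8 of 8 macrophage markers were higher too, and their part was not tested.

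The control microRNA was also set against activated cells with no microRNA named, where group and animal differences cannot be told apart either. Here 3 genes were lower (Thbs2, Postn and Tnc), 1 was higher (Tgfbi) and 6 were not called, while 6.61% of all genes were lower and 7.18% higher (4.84% and 8.94% after median-ratio scaling). The median log2 difference was -0.02 for the 10 genes and -0.03 over all genes. Thbs2 with the control microRNA was at 55.2% of its activated mean (-0.85 ± 0.11, adjusted p = 0.0050, limma). Postn was at 60.6% (-0.71 ± 0.15, adjusted p = 0.024, limma) and Tnc at 79.8% (-0.32 ± 0.07, adjusted p = 0.023, limma).

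Tgfbi moved most in this comparison, by 2.12 ± 0.13 from 28 in both activated libraries to 138 in both control libraries (adjusted p = 2.4e-04, limma). Here 0 of 10 endothelial and 1 of 8 macrophage markers were called higher, against 7.18% of all genes. The median log2 differences of these markers were 0.58 and 0.41, against -0.03 over all genes, and their part was not tested. The calls of Postn and Tnc were lost with only the 2 groups in the fit (0.092 and 0.075) and without control library b (0.12 and 0.068). Postn was also lost without activated library a (0.081), and Tnc without activated library b (0.12), without control library a (0.055) and with a constant variance prior (0.057). Fstl1 was tied at 42360 in all 4 libraries and Sparc at 24105. Spp1 (95% interval of the difference -0.34 to 0.12) and Mgp (-0.32 to 0.22) were not called.

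The 10 genes fell into several orders of level over the 4 groups. Postn, Thbs2 and Tnc shared 1 order, activated above control microRNA above miR-15a above quiescent, and each neighbouring pair was called. The call between activated and control microRNA was lost for Postn and Tnc in some of the refits given above. For Tnc the call between control microRNA and miR-15a was lost in some refits too. Spp1 had the same order, but its activated and control microRNA means of 765 and 710 were not told apart (adjusted p = 0.50, limma). Fstl1 had activated and control microRNA tied, miR-15a next and quiescent lowest. Sparc, Fn1 and Thbs1 had 3 activated groups that were tied or not told apart, all above quiescent. Mgp was highest with miR-15a, and its activated and control microRNA means of 5334 and 5123 overlapped. Tgfbi alone had quiescent at the top, then control microRNA, miR-15a and activated, each neighbouring pair called.

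**Figure D5:**
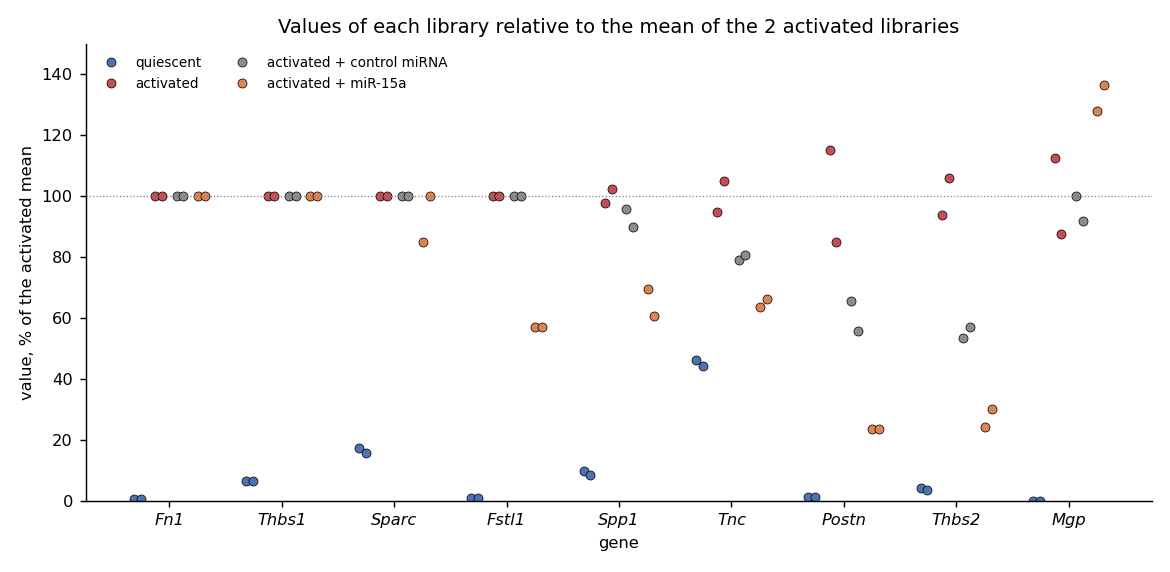
Value of each library as a percent of the mean of the 2 activated libraries for the 9 genes that rose on activation. Postn and Thbs2 with miR-15a lie lowest among the activated groups, at means of 23.7% and 27.3%, with the control microRNA libraries between; Mgp with miR-15a lies above 100%.

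Other matricellular genes were taken from a list of 32, of which 17 were measured and 16 tested. In activated libraries 9 were higher and 6 lower (median log2 difference 1.70), against 45.4% higher and 34.1% lower over all genes and a median of 0.21. Wisp1 (now Ccn4), a CCN-family protein, went from 133 in both quiescent libraries to 9198 in both activated ones (6.06 ± 0.05). The matrix protein gene Fbln2, which encodes fibulin 2, went from 108 and 78 to 58193 in both (9.23 ± 0.13). Smoc1, a SPARC-related calcium-binding protein, rose by 5.55 ± 0.12 from 7 and 6 to 510 and 556. With miR-15a against the control microRNA 9 of the 16 fell and 2 rose, with a median of -0.55, against 15.4% lower and 14.4% higher over all genes. Wisp1 fell by 0.58 and Smoc1 fell by 1.15 on the log2 scale, while Fbln2 was tied at 58193. Lgals3, which encodes galectin 3 and is abundant in macrophages, was at 1486 and 1588 with miR-15a against 329 and 360 (2.14 ± 0.08).

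Of 22 measured integrins and other receptors of these proteins, 9 were higher and 9 lower in activated libraries (median 0.24), near the 45.4%, 34.1% and 0.21 of all genes. The integrin subunit gene Itgb5 went from 728 and 712 to 8724 and 9198 (3.63 ± 0.07) and the proteoglycan Sdc1, syndecan 1, from 200 and 217 to 2528 and 2420 (3.54 ± 0.07). Stab1, a scavenger receptor of endothelium and macrophages that takes up SPARC, was at 31224 in both quiescent libraries and at 36 and 24 in activated ones. Cd36, a thrombospondin receptor that endothelial cells and macrophages also express, was at 58200 in both quiescent libraries and at 206 and 135 after activation. With miR-15a against the control microRNA 10 of the 22 fell and 4 rose, against 15.4% and 14.4% of all genes. Stab1 at 1353 and 1461 against 84 and 130, and Cd36 at 2670 and 2866 against 194 and 250, were among the 4, as was Tlr4, a receptor that tenascin C can engage (1.10 ± 0.09). They moved with the endothelial and macrophage sums, whose part was not tested.

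A list of 22 genes held TGF-beta and BMP factors and other inducers of these proteins, among them interleukin receptors. Of these 10 rose and 12 fell on activation (median -0.43), against 45.4% and 34.1% of all genes. Ltbp1, which holds latent TGF-beta in the matrix, went from 114 and 92 to 4086 and 4446 (5.31 ± 0.10). Il4ra, a subunit of the interleukin 4 and 13 receptors, fell by 3.90 on the log2 scale. With miR-15a against the control microRNA 6 fell and 3 rose, and 13 were not called (median -0.17), against 15.4% lower and 14.4% higher over all genes. Bmpr1a, a BMP receptor, fell by 0.99 and Ltbp1 fell by 0.58, while Bmp2, at 96 and 104 against 1 and 3, and Il13ra1, at 542 and 508 against 193 and 194, rose. Both were also higher in quiescent than in activated libraries, as the endothelial and macrophage sums were, whose part was not tested.

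Among 14 measured enzymes that modify matrix proteins, 9 rose and 5 fell on activation (median 1.32), against 45.4% and 34.1% of all genes. Plod2, a collagen lysyl hydroxylase, went from 175 and 176 to 10504 and 11352 (5.92 ± 0.07). Tgm2, a transglutaminase that cross-links fibronectin, was lower in activated libraries, at 5764 in both against 42350, and Adamts1, a protease of the matrix, fell by 3.16. With miR-15a against the control microRNA 6 of the 14 fell and 2 rose (median -0.27), against 15.4% and 14.4% of all genes, and Tgm2 was higher by 0.45 ± 0.05. Plod2 fell by 1.10 and the gelatinase gene Mmp2 fell by 0.90 on the log2 scale.

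For each of the 10 genes the most similar profiles were sought among 10085 genes, as the root mean square difference of centred log2 values over the 8 libraries, which all share the same normalization. Postn was closest to Adamts12 (0.18) and Plod2 (0.22), Thbs2 to Ereg (0.20) and Nol3 (0.22), and Fstl1 to Pdzrn3 (0.12) and Hs6st2 (0.17). Tnc was closest to Rnf6 (0.04) and Camk2d (0.04), Spp1 to Rrm1 (0.09) and Slc41a2 (0.10), and Sparc to Tmem97 (0.08) and Rps24 (0.09). Fn1 was closest to Col1a2 (0.09), a collagen chain at the same ceiling, and Thy1 (0.14). Thbs1 had Nudt6 (0.09) among its nearest 2. Mgp had no comparably close profile, its nearest being Fbln2 (0.37) and S100a6 (0.40). Tgfbi was closest to Igfbp4 (0.20) and to Tnxb (0.31), which is itself a tenascin gene. Among the 10 genes the closest pair was Sparc and Spp1 (0.33), and Tgfbi was farthest from its nearest, Tnc (2.41).

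In the GENCODE M21 annotation on GRCm38 the 10 genes lie on 10 different chromosomes. Postn is at chr3:54361109-54391037 (plus strand), Thbs2 at chr17:14665500-14694235 (minus), Fstl1 at chr16:37776873-37836514 (plus), Mgp at chr6:136872435-136875823 (minus) and Tgfbi at chr13:56609523-56639562 (plus). Fn1 is at chr1:71585520-71653200 (minus), Thbs1 at chr2:118111876-118127133 (plus), Tnc at chr4:63959785-64047015 (minus), Spp1 at chr5:104435118-104441050 (plus) and Sparc at chr11:55394500-55423183 (minus). Annotated transcripts on the opposite strand overlap Thbs1, Tnc and Fn1. None of these is in the deposited table, and strand use in the counting is not given in the sources used here, so reads of the partners cannot be told apart from those genes. The same holds for a transcript that overlaps Spp1 on its own strand.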

How the data were processed

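Total RNA was made into TruSeq libraries and sequenced single-end (NextSeq), per the labels' protocols. STAR, Subread, featureCounts and the build mm10 are named without versions or roles, per the submitters' processing notes. The deposited values are normalized scores in whole numbers: the libraries share 1 set of values and totals differ by 0.409%. Among the 30 highest steps, 215 of 240 held exactly 10 genes. The normalization is not given in the sources used here. Depth is unknown.

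Here limma 3.58.1 (R 4.3.3) was run on log2(value + 5) for the 13150 genes that reached 10 in 2 or more libraries. It fitted 4 group means over all 8 libraries (4 residual degrees of freedom) and a variance prior following the mean level, two-sided, with Benjamini-Hochberg adjustment over all genes. Errors are the fit's SE. Of 6 comparisons between groups, several share libraries. The procedure was tested on simulated data. Alternatives covered pseudocount, filter, scaling, variance prior, samples fitted, replicate block, each library left out, a fold limit and the seed definition. Named partner genes were up to 3 per list with the smallest p in each of 2 comparisons, activated against quiescent and miR-15a against control microRNA. The genes and lists were chosen with earlier results of these data known. Protein sequences were not used here. A gene that the naming rule picks is not reported here.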

Additional observations from a re-analysis of the deposited data

How the results depend on the processing

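Of 960 values of single genes recomputed under the alternatives other than the fold limit, 938 kept their direction and their side of the threshold. Another 20, from 6 of 48 calls, lost the call, and 42 calls kept it under every one of these alternatives. The calls lost were those of Tnc, Spp1 and Mgp against the control microRNA, Mgp with miR-15a against activated cells, and Postn and Tnc with the control microRNA against activated cells. The uncalled difference of Mgp between control microRNA and activated cells (-0.05) changed sign, with a range of -0.23 to 0.13 as each library was left out. A further limit of a log2 difference over 1 was applied to the 10 genes but not counted over all genes. With it, the number of the 10 genes called went from 7 to 2 for miR-15a against the control microRNA. It went from 7 to 3 for miR-15a against activated cells and from 4 to 1 for the control microRNA against activated cells. In the last comparison it was 2 with only the 2 groups in the fit and 2 to 4 as each library was left out. Requiring the 8-base seed match left 1 gene (Thbs2) of 3, against 4.95% of all genes with an annotated 3′ UTR. The 6-base match gave 4 of the 10 genes, against 48.0% of all genes. Over all genes, the 3926 called for miR-15a against the control microRNA went to 2296 with only the 2 groups in the fit, 2381 without miR-15a library b and 2385 without control library b. Against activated cells 5045 went to 3253 and 2655 without activated libraries a and b and 3308 without miR-15a library b. For the control microRNA against activated cells 1813 went to 436 with the 2 groups alone, 682 and 503 without activated libraries a and b and 675 without control library b. Median-ratio scaling moved the median of all genes by -0.21 for activated against quiescent cells, -0.15 and -0.11 for the control microRNA and miR-15a against quiescent cells, and by under 0.1 in the other 3 comparisons. With the replicate letter as a block (replicate block) 10, 7, 7, 4, 10 and 10 genes were called in the 6 comparisons, as without it. Of all genes 79.1%, 28.7%, 36.1%, 11.3%, 71.2% and 73.4% were called with the block, in the same order. Deviations of libraries with the same letter correlated at r = -0.07 to 0.09 across genes, and the labels do not say that a letter marks a shared source. Shared steps limit what can be resolved at high values.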
